A study of Mus musculus with 15 samples.

Results

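Glycolysis and TCA cycle enzymes were followed across 15 RNA-seq libraries of mouse bone marrow derived macrophages. The set holds 37 genes of the 25700 in the deposited table and was chosen by name, not by any measured value. It covers 19 genes of glucose uptake, glycolysis and lactate handling, 6 genes of pyruvate entry into the mitochondrion and 12 genes of the TCA cycle. A listed gene was kept where 3 or more libraries had at least 10 counts, and all 37 passed this in all 15 libraries. Marrow from mice aged 8 to 10 weeks was cultured in every group for 7 days with M-CSF at 10 ng/ml, the growth factor that turns marrow progenitors into macrophages. The 5 groups had 3 libraries each. They were cells left untreated (controls), cells given heme-albumin at a concentration of 200 or 400 µM, cells given 10 ng/ml of IL-4 (labelled M2) and cells given 10 ng/ml of IFN-γ (labelled M1). Heme-albumin was hemin carried on human serum albumin, and the design text calls the cells it makes erythrophagocyte-like, after macrophages that engulf red cells. The sources used here do not give mouse strain, mouse sex or treatment time. The labels leave unsaid whether a group's libraries came from separate mice or cultures, so p-values measure the spread between libraries only, and that spread may be technical.

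Glycolysis turns glucose into pyruvate in the cytosol. Pyruvate is then reduced to lactate and exported, or enters the mitochondrion, where pyruvate dehydrogenase makes acetyl-CoA and pyruvate carboxylase makes oxaloacetate, the pair that citrate synthase joins at the start of the TCA cycle. In macrophages, activation by IFN-γ together with microbial products is known for raised glucose use and interrupted TCA flux, and the response to IL-4 for reliance on mitochondrial oxidation. The genes encode enzymes and carriers, and their RNA levels are not measurements of flux.

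Levels are CPM, counts divided by the TMM-scaled size of their library, given per library in the order of replicates 1, 2 and 3 or as mean ± SD (n = 3). Changes are log2 fold changes ± SE from edgeR's quasi-likelihood test, and a gene is said to rise or fall only at a Benjamini-Hochberg adjusted p under 0.05 over the 11883 genes tested. Total counts ran from 8427352 to 28587416 per library. The member with the fewest counts in any library was Pcx, with 84. All 8 macrophage markers carried counts, and their summed level was 37098 to 42006 CPM in controls, 45569 to 53252 at 200 µM, 41993 to 50176 at 400 µM, 14629 to 20521 with IL-4 and 12858 to 23396 with IFN-γ. Lyz2 made up 53.7 to 89.2% of that sum, and its part in the results was not tested. Heme-albumin 400 replicate 2 and IFN-γ replicate 3 stood apart from their groups. In chi-square units divided by the degrees of freedom, heme-albumin 400 replicate 2 was 62.4 and 49 from the other two of its group, which were 10.8 apart. IFN-γ replicate 3 was 135 and 130 from the other two of its group, which were 44.7 apart. Heme-albumin 400 replicate 2 had the lowest level of its group in 14 of the 19 glycolysis genes (73.7%), against 43.1% over all genes tested. IFN-γ replicate 3 was lowest in 15 of 19 (78.9%), against 39.1%, and IL-4 replicate 3 in 12 of 19 (63.2%), against 27.6%. Where a member's call against control changes without both heme-albumin 400 replicate 2 and IFN-γ replicate 3, the adjusted p without them is given.

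The treatments differed in which members passed the test. At 200 µM heme-albumin, 12 of the 37 genes rose and 0 fell, where 14.0% of all genes tested rose and 9.48% fell (23.4% changed either way). At an unadjusted p under 0.05, 18 members were higher and 0 lower, and DESeq2 called 13 and 0. At 400 µM, 8 rose and 0 fell, against 14.7% and 10.8% of all genes (25.4% either way), with 12 higher and 3 lower at an unadjusted p under 0.05 and 8 and 1 by DESeq2. With IL-4, 6 rose and 4 fell, against 14.9% and 12.0% of all genes (26.8% either way). With IFN-γ, 11 rose and 7 fell, against 24.1% and 19.5% (43.7% either way), and under upper-quartile scaling, which shifts the median of all genes by -0.11, these counts were 7 and 9. The median change of the 37 was 0.21 at 200 µM, 0.19 at 400 µM, -0.01 under IL-4 and 0.09 under IFN-γ, against 0.02, 0.01, 0.00 and 0.05 over all genes. These 4 comparisons share the same 3 control libraries.

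**Figure D1:**
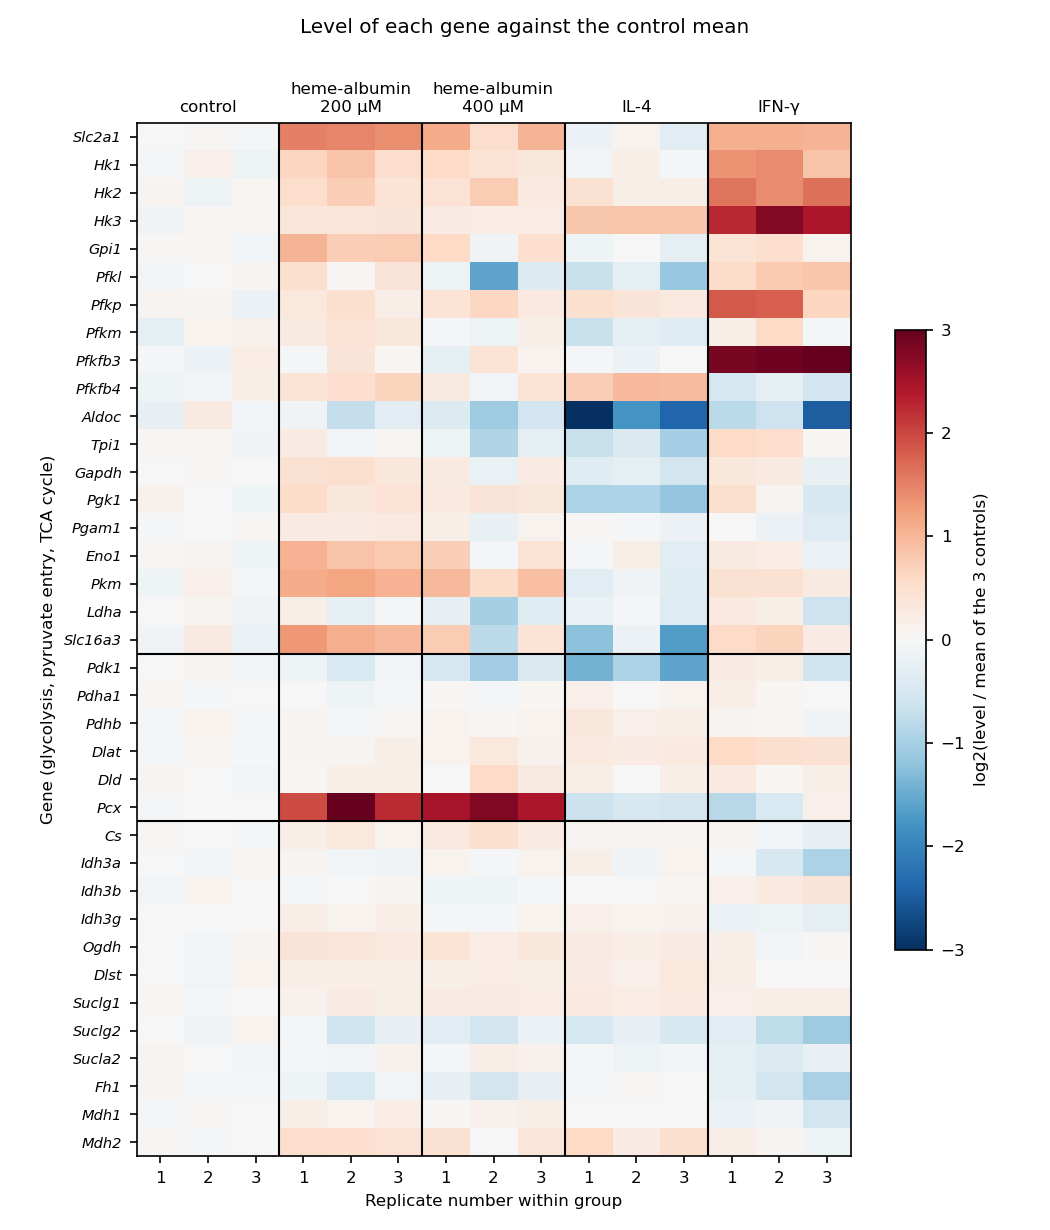
Level of each of the 37 genes (rows) in each of the 15 libraries (columns), as log2 of the ratio to the mean of the 3 controls, with colours limited to the range -3 to 3 and horizontal lines between glycolysis, pyruvate entry and the TCA cycle. Slc2a1 and Pkm are red across both heme-albumin groups, Pcx is dark red in those 6 libraries only, Pfkfb3 is darkest in the 3 IFN-γ libraries, and Aldoc and Pdk1 are blue with IL-4.

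At 200 µM heme-albumin 9 of the 19 glycolysis genes rose (47.4%), and at 400 µM 4 (21.1%). With IL-4 2 rose (10.5%) and 3 fell (15.8%), and under IFN-γ 8 rose (42.1%) and 2 fell (10.5%). The median change of the 19 was 0.43, 0.23, -0.14 and 0.40 in that order, against 0.02, 0.01, 0.00 and 0.05 over all genes. Of the 12 TCA cycle genes, 2 rose at 200 µM (16.7%), 3 at 400 µM (25.0%) and 3 with IL-4 (25.0%). With IFN-γ 2 of the 12 rose (16.7%) and 5 fell (41.7%). Of all genes tested, 14.0%, 14.7%, 14.9% and 24.1% rose in the same order, and 9.48%, 10.8%, 12.0% and 19.5% fell. Replicate by replicate against the control of the same number, the glycolysis median at 200 µM was 0.48, 0.47 and 0.35. At 400 µM it was 0.33, -0.15 and 0.23, with the negative value in the library that stood apart. With IL-4 it was -0.19, -0.05 and -0.28, and with IFN-γ 0.51, 0.45 and 0.20.

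Promoter sequences are shown for some members that rose in a comparison with control and for Ldha, which passed the test in none. The choice does not follow the size of the change. Hk3 and Aldoc changed more than Slc2a1 and Slc16a3 and are not shown. The window of Hk3 holds ACGTG 1 time, and each window of Aldoc holds it 0 times and GCGTG 1 time. Each is the 250 bases before a RefSeq start (GRCm38.p6), 5′ to 3′ on the gene's strand. Capitals mark ACGTG or GCGTG, the core of the hypoxia response element, on either strand, and in Ldha also TTC and GAA with 4 bases between, a spacing known for STAT6. Slc2a1 and Pcx rose with both doses of heme-albumin, Slc16a3 at 200 µM (a call lost without any 1 of the 6 libraries compared) and Pfkfb3 with IFN-γ. The windows are chr4:119108495-119108744 (plus strand) for Slc2a1, chr11:120948817-120949066 (plus) for Slc16a3, chr19:4510222-4510471 (plus) for Pcx, chr2:11502091-11502340 (minus) for Pfkfb3 and chr7:46845554-46845803 (plus) for Ldha.
Slc2a1: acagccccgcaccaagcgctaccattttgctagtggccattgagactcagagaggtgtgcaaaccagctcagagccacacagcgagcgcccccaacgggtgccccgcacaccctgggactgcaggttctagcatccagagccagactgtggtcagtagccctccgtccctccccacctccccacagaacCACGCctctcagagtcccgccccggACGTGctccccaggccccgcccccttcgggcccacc
Slc16a3: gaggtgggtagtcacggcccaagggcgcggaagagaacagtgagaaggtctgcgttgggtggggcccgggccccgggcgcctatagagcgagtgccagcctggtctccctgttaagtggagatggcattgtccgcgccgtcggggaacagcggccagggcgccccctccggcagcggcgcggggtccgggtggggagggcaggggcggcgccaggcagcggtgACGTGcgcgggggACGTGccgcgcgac
Pcx: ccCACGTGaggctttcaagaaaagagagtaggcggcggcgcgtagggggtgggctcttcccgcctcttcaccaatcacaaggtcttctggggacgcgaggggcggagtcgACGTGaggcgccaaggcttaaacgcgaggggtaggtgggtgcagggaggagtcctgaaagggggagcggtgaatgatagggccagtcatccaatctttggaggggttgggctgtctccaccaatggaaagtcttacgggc
Pfkfb3: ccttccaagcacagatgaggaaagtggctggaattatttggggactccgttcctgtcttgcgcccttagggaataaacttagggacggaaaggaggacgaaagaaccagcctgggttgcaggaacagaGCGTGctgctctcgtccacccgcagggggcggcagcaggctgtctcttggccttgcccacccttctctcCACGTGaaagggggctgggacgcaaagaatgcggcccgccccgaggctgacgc
Ldha: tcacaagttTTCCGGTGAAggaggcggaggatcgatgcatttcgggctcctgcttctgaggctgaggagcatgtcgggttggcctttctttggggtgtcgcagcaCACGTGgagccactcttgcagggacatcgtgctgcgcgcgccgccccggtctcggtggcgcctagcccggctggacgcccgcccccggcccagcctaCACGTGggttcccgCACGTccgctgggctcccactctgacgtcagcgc

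Pcx, Pfkfb3 and Ldha have 2 windows each in the table, and the one shown is that with more ACGTG counted over both strands. The other window holds ACGTG 0 times for Pcx, 1 time for Pfkfb3 and 0 times for Ldha. ACGTG was found 1 time in the window of Slc2a1, beside 1 GCGTG. It was found 2 times in Slc16a3, 3 times in Pcx, 2 times in Pfkfb3 (beside 1 GCGTG) and 5 times in Ldha. In Pcx, Pfkfb3 and Ldha these include CACGTG, which reads the same on both strands and counts 2 times. Both counts of Pfkfb3 are the same CACGTG, while those of Slc16a3 are separate stretches. Of the 36 members with a window, 27 held ACGTG or GCGTG in at least 1 window (39 of 53 windows), against 38.6% of all 32851 windows of that length. ACGTG alone stood in 22 of the 53 member windows and 16.6% of all windows, and GCGTG in 27 of 53 and 28.2%. The member windows had a median GC content of 60.4%, against 52.4% over all windows. TGACNNNGC, the core of the antioxidant response element, stood in 4 of the 53 member windows and in 10.2% of all windows. TTCNNNGAA, the STAT spacing, stood in 2 of 53 and 7.02%, and the form with 4 bases between in 5 of 53 and 5.85%. All motifs were searched on both strands. By this count the window of Ldha shown holds the most ACGTG of the 5 shown, while its level passed the test in none of the 4 comparisons with control.

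Slc2a1 encodes GLUT1, the glucose transporter of macrophages (ENSMUSG00000028645, chromosome 4, 119108711 to 119137983). It rose with both doses of heme-albumin and with IFN-γ. The controls held 94.0, 95.6 and 89.8 CPM. The level was 265, 256 and 245 at 200 µM, 202, 134 and 189 at 400 µM, 82.4, 100.3 and 74.1 under IL-4, and 194, 194 and 189 under IFN-γ. Every library of the 3 groups that rose lay above every control, and the IL-4 libraries overlapped the controls. The change was 1.45 ± 0.14 at 200 µM (adjusted p = 1.06e-05), 0.91 ± 0.14 at 400 µM (adjusted p = 0.000372) and 1.04 ± 0.14 with IFN-γ (adjusted p = 5.81e-05), and each passed in all alternatives run. With IL-4 it was -0.12 ± 0.14 (adjusted p = 0.557).

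Hexokinases add the phosphate that traps glucose in the cell. All 3 rose with IFN-γ, Hk3 most. Hk3 (ENSMUSG00000025877, chromosome 13, 55005985 to 55021385) stood at 276, 305 and 312 CPM in controls, 385, 386 and 389 at 200 µM, 353, 348 and 349 at 400 µM, 521, 526 and 531 under IL-4, and 1436, 2007 and 1588 under IFN-γ. The 5 groups did not overlap with one another, and the order from low to high was control, 400 µM, 200 µM, IL-4, IFN-γ, although 200 and 400 µM did not differ past the test (adjusted p = 0.535). Against control, Hk3 rose by 2.49 ± 0.12 with IFN-γ (adjusted p = 4.98e-09), by 0.82 ± 0.11 with IL-4 (adjusted p = 0.000128) and by 0.38 ± 0.11 at 200 µM (adjusted p = 0.027). The last call was lost without any 1 of the 6 libraries compared (adjusted p = 0.061 to 0.137) and with no filter on low counts (adjusted p = 0.0515).

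Hk1, the broadly expressed isozyme, and Hk2, an inducible isozyme, rose with heme-albumin as well as with IFN-γ. Hk1 held 113, 128 and 104 CPM in controls, 179, 207 and 165 at 200 µM, 171, 154 and 146 at 400 µM, 108, 131 and 111 under IL-4, and 294, 307 and 209.5 under IFN-γ. Hk1 rose by 0.67 ± 0.15 at 200 µM (adjusted p = 0.00485), 0.45 ± 0.15 at 400 µM (adjusted p = 0.038) and 1.23 ± 0.15 with IFN-γ (adjusted p = 2.5e-05). At 400 µM the Hk1 call was lost without control 1 (adjusted p = 0.107), control 3 (0.146) or any 1 heme-albumin 400 library (0.0529 to 0.106), and with no filter (0.0564). Hk2 held 47.3, 39.9 and 46.9 CPM in controls, 64.0, 74.5 and 59.7 at 200 µM, 60.7, 75.5 and 54.8 at 400 µM, 61.8, 50.9 and 50.9 under IL-4, and 137, 119 and 141 under IFN-γ. All of the treated libraries lay above all of the controls for Hk2, and the rise passed at 200 µM (0.56 ± 0.14, adjusted p = 0.00896), at 400 µM (0.51 ± 0.14, adjusted p = 0.0148) and with IFN-γ (1.57 ± 0.14, adjusted p = 1.44e-06), while IL-4 gave 0.29 ± 0.14 (adjusted p = 0.142). The Hk2 call at 200 µM was lost without control 2 (adjusted p = 0.0583) or heme-albumin 200 replicate 2 (0.0508), and that at 400 µM without control 2 (0.0793) or heme-albumin 400 replicate 2 (0.07).

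Phosphofructokinase makes the committed step of glycolysis, and the bifunctional PFKFB enzymes make or remove fructose 2,6-bisphosphate, its activator. Pfkfb3, the isozyme with the highest kinase activity, had the largest rise of the 37 genes with IFN-γ and passed in no other comparison with control. Pfkfb3 (ENSMUSG00000026773, chromosome 2, 11471433 to 11554077) stood at 32.6, 30.2 and 39.8 CPM in controls, 32.8, 44.4 and 35.7 at 200 µM, 28, 45.2 and 36.6 at 400 µM, 33.1, 30.1 and 33.8 under IL-4, and 248, 257 and 374 under IFN-γ. The IFN-γ libraries lay far above the other 12, which overlapped. The rise was 3.10 ± 0.20 (adjusted p = 8.97e-08), or 8.59-fold.

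Pfkfb4, the isozyme also known from testis and tumours, went another way. Its level was 47.9, 49.1 and 58.9 CPM in controls, 68.7, 73.9 and 82.3 at 200 µM, 62.6, 49.4 and 68.8 at 400 µM, 87.2 to 102 with IL-4, and 36.2, 43.4 and 34.7 under IFN-γ. Pfkfb4 rose with IL-4 by 0.90 ± 0.14 (adjusted p = 0.000284) and at 200 µM by 0.53 ± 0.14 (adjusted p = 0.0129), and fell with IFN-γ by 0.44 on the log2 scale (SE 0.14, adjusted p = 0.0185). The IL-4 libraries were above, and the IFN-γ libraries below, every control. The call at 200 µM was lost without control 1 (adjusted p = 0.0697), control 2 (0.0595) or heme-albumin 200 replicate 3 (0.0538), and that with IFN-γ without control 3 (0.0726) or IFN-γ replicate 3 (0.0591). The direct difference between IL-4 and IFN-γ was 1.34 ± 0.14 for Pfkfb4 (adjusted p = 3.02e-06) and -3.18 ± 0.20 for Pfkfb3 (adjusted p = 2.96e-08).

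Of the phosphofructokinases, Pfkp (platelet type) and Pfkl (liver type) rose with IFN-γ. Pfkm (muscle type) passed in no comparison with control by the fit over all 15 libraries. With only the 6 libraries compared, Pfkp passed as higher at 200 µM (adjusted p = 0.035), 400 µM (0.0323) and with IL-4 (0.00868). In that fit Pfkm passed as higher at 200 µM (0.0493) and lower with IL-4 (0.0311), and Pfkl as lower with IL-4 (0.0128). Pfkp held 143, 142 and 119 CPM in controls and 483, 467 and 212 under IFN-γ, with the low value in replicate 3, and rose by 1.52 ± 0.23 (adjusted p = 0.000192). Pfkl held 89.8, 94.3 and 99.5 CPM in controls and 139, 164 and 168 under IFN-γ, a rise of 0.73 ± 0.28 (adjusted p = 0.0482). The Pfkl call was lost with the replicate number as a block (adjusted p = 0.0577), with 2 other scalings (0.0525 and 0.0779), with no filter (0.0507), without any 1 control (0.0876 to 0.121) and without IFN-γ replicate 2 (0.0997) or 3 (0.0936). At 400 µM Pfkl stood at 84.4, 31.4 and 71.6 CPM, all below the controls, with the lowest in the library that stood apart (-0.59 ± 0.28, adjusted p = 0.142).

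Converted to counts per kilobase of the longest principal transcript, the makeup of these enzyme families differed between groups. Hk3 made up 70.9 ± 2.06% of the hexokinase level in controls (SD, n = 3), 66.9 ± 2.62% at 200 µM, 67.5 ± 1.59% at 400 µM, 80.3 ± 1.09% with IL-4 and 84.5 ± 2.61% with IFN-γ. The summed hexokinase level per kilobase was 130.4 in controls, 179.8 at 200 µM, 161 at 400 µM, 204 with IL-4 and 615 under IFN-γ. Pfkfb3 made up 33.1 ± 1.25% of the PFKFB pair in controls, 27.4 ± 3.36% at 200 µM, 31.5 ± 8.19% at 400 µM, 20.2 ± 2.04% with IL-4 and 84.8 ± 3.77% with IFN-γ. The pair thus had Pfkfb4 as the larger share in the other 4 groups and Pfkfb3 in every IFN-γ library. Pfkp took 50.2 ± 4.11% of the phosphofructokinase level in controls and 66.9 ± 4.59% with IL-4, and 65.5 ± 10.3% and 63.1 ± 11.8% at 400 µM and with IFN-γ, where single libraries ran from 59.6 to 77.4% and from 49.8 to 72.1%. With merged exon lengths in place of transcript lengths the Hk3 share was 79.4% in controls and 89.3% with IFN-γ, and the Pfkfb3 share 29.7% and 82.7%. In the phosphofructokinases this choice reverses the order, since Pfkp then took 33.4% and Pfkl 46.9% in controls, against 50.2% and 39.2% by transcript length. These shares are descriptions and were not tested.

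**Figure D2:**
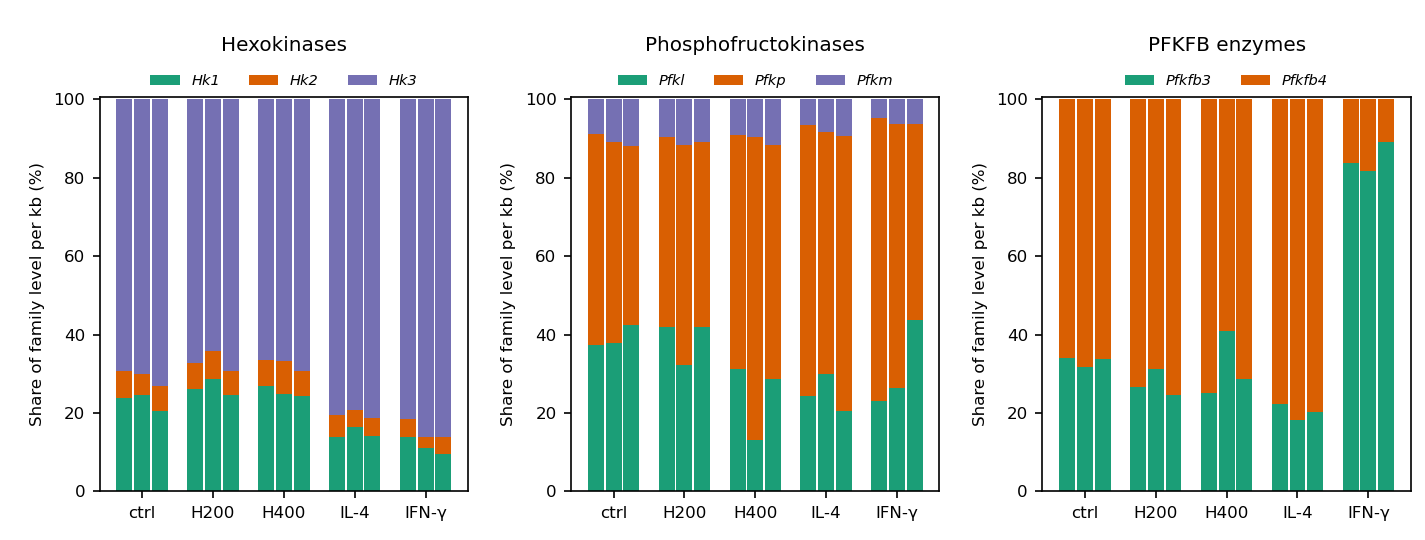
Share of each isozyme in its family (percent of the level per kilobase, bars sum to 100) in each of the 15 libraries, with ctrl for control, H200 and H400 for heme-albumin at 200 and 400 µM, and bars in the order of replicates 1, 2 and 3. Pfkfb3 fills 81.7 to 89.0% of the PFKFB pair in the IFN-γ libraries, and Hk3 fills 79.1 to 86.0% of the hexokinases with IL-4 and IFN-γ.

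Gpi1, glucose-6-phosphate isomerase, rose at 200 µM heme-albumin. It stood at 672, 679 and 617 CPM in controls, 1322, 1094 and 1115 at 200 µM, 988, 609 and 927 at 400 µM, 601, 654 and 533 under IL-4, and 865, 926 and 708 under IFN-γ. The rise at 200 µM was 0.84 ± 0.17 (adjusted p = 0.00293), with no overlap. At 400 µM it was 0.36 ± 0.17 (adjusted p = 0.138), and without replicate 2, whose level was below all controls, the adjusted p was 0.0141. With IFN-γ the 3 libraries lay above all controls (0.34 ± 0.17, adjusted p = 0.114), and without both libraries that stood apart the adjusted p was 0.00649. Of its 50-base words, 18.6% also occur in transcripts of other genes, chiefly the copy Gm1840, so its counts are uncertain.

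Aldoc (aldolase C), Tpi1 (triose phosphate isomerase) and Pgk1 (phosphoglycerate kinase) fell with IL-4. Aldoc stood at 128, 182 and 144 CPM in controls and 17.2, 44.0 and 29.0 under IL-4, a fall of 2.33 on the log2 scale (SE 0.42, adjusted p = 0.000985) and the largest fall of the 37 genes in any comparison with control. With IFN-γ it held 86.7, 97.9 and 27.3 CPM and fell by 1.10 (SE 0.40, adjusted p = 0.0402). That call was lost without control 1 (adjusted p = 0.0562), control 2 (0.116), control 3 (0.0698) or IFN-γ replicate 3 (0.0829), with only the 6 libraries compared (0.0949) and without the 2 libraries that stood apart (0.0602). With heme-albumin Aldoc held 141, 92.1 and 119 CPM at 200 µM and 113, 71.8 and 102 at 400 µM, and passed at neither dose (adjusted p = 0.537 and 0.247). At 400 µM all libraries lay below all controls, and with only the 6 libraries compared Aldoc passed as lower (adjusted p = 0.0298).

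Pgk1 held 486, 444 and 405 CPM in controls, 229, 234 and 200.3 under IL-4, 654, 564 and 604 at 200 µM, 546, 579 and 567 at 400 µM, and 623, 474 and 321 under IFN-γ. With IL-4 it fell by 1.01 (SE 0.18, adjusted p = 0.000966), and all 3 IL-4 libraries were below all other 12. Both heme-albumin groups lay above the controls without overlap, but missed the threshold (0.45 ± 0.18 at 200 µM, adjusted p = 0.0857, and 0.34 ± 0.18 at 400 µM, adjusted p = 0.178). With the replicate number as a block, the rise at 200 µM passed (adjusted p = 0.0496). Tpi1 held 663, 664 and 596 CPM in controls and 402, 474 and 318 under IL-4, a fall of 0.69 (SE 0.20, adjusted p = 0.0211) that was lost without control 1 (0.0566), control 2 (0.0516), IL-4 replicate 1 (0.0595) or IL-4 replicate 3 (0.0837). With IFN-γ Tpi1 stood at 947, 926 and 670.1 CPM and passed only without replicate 3 (adjusted p = 0.0437) or without both libraries that stood apart (0.009). Pgk1 shares 68.0% of its 50-base words with copies, chiefly Pgk1-rs7, and Tpi1 6.83%, so that reads may have been lost or split.

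Eno1 (enolase) and Pkm (pyruvate kinase), which make and use phosphoenolpyruvate, rose at 200 µM heme-albumin. Eno1 stood at 577, 599.8 and 522 CPM in controls, 1172, 1018 and 970.3 at 200 µM, 948, 539.7 and 766 at 400 µM, 552, 640.3 and 454 under IL-4, and 687, 659.9 and 496 under IFN-γ. It rose by 0.90 ± 0.19 at 200 µM (adjusted p = 0.00476) and changed by 0.41 ± 0.19 at 400 µM (adjusted p = 0.141), where it passed without replicate 2 (0.0288). Pkm (ENSMUSG00000032294, chromosome 9, 59656368 to 59679375) had the highest level per kilobase of the 37 genes in every group, from 803 with IL-4 to 2083 at 200 µM. It held 2131, 2615 and 2300.1 CPM in controls, 5047, 5339.6 and 4813 at 200 µM, 4588, 3417 and 4358 at 400 µM, 1856, 2185 and 1819 under IL-4, and 3223, 3215 and 2839 under IFN-γ. The rise of Pkm was 1.11 ± 0.14 at 200 µM (adjusted p = 0.000111), 0.81 ± 0.14 at 400 µM (adjusted p = 0.00105) and 0.40 ± 0.14 with IFN-γ (adjusted p = 0.0365), with no overlap with the controls. The call with IFN-γ was lost without control 1 (adjusted p = 0.133), control 3 (0.0951), IFN-γ replicate 1 (0.0709) or IFN-γ replicate 2 (0.0856), and with upper-quartile scaling (0.112), no filter (0.0647) or only the 6 libraries compared (0.0985). Eno1 shares 49.5% and Pkm 23.7% of its 50-base words with other genes, and gene counts do not separate the 2 splice forms of Pkm.

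Gapdh and Pgam1, the remaining lower glycolysis enzymes, passed in none of the 4 comparisons with control by edgeR over all 15 libraries, and some alternatives gave a call. Gapdh stood at 1206, 1247 and 1222 CPM in controls and 1676, 1723 and 1563 at 200 µM without overlap (0.43 ± 0.16, adjusted p = 0.0655), and DESeq2 gave an adjusted p of 0.0477 and the fit to only the 6 libraries compared 0.0055. Under IL-4 Gapdh stood at 950, 1017 and 841 CPM, below every control (-0.39 ± 0.16, adjusted p = 0.0907), with 0.0404 by DESeq2 and 0.00455 with only the 6 libraries compared. Under IFN-γ it stood at 1562, 1471 and 1047 CPM (0.15 ± 0.16, adjusted p = 0.466, and 0.0223 without both libraries that stood apart). Gapdh shares 58.4% of its 50-base words with 218 other genes. It is often used as a reference gene, and between IL-4 and IFN-γ it differed past the test (-0.54 ± 0.16, adjusted p = 0.0124, lost at 0.0563 with only the 6 libraries compared). Pgam1 held 159, 161 and 165 CPM in controls and 193, 193 and 197 at 200 µM (0.27 ± 0.12, adjusted p = 0.117, and 0.0218 with only the 6 libraries compared). Under IFN-γ Pgam1 was at -0.19 ± 0.12 (adjusted p = 0.197), and at 0.0448 with upper-quartile scaling.

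At the lactate step, the exporter Slc16a3 rose at 200 µM and the dehydrogenase subunit Ldha passed in no comparison with control. Slc16a3 encodes MCT4, a lactate exporter (ENSMUSG00000025161, chromosome 11, 120948480 to 120960868). It stood between 101.0 and 140.3 CPM in controls, 287, 247 and 230.1 at 200 µM, 199, 67.6 and 156 at 400 µM, 49.8, 103 and 36.8 under IL-4, and 174, 186 and 138 under IFN-γ. It rose by 1.12 ± 0.37 at 200 µM (adjusted p = 0.0435), a call lost without any 1 of the 6 libraries compared (adjusted p = 0.0686 to 0.137). At 400 µM the libraries lay on both sides of the controls, with the low value in replicate 2 (0.27 ± 0.37, adjusted p = 0.634). With IL-4 the change was -0.89 ± 0.37 (adjusted p = 0.0971), which passed without IL-4 replicate 2 (0.0107). Ldha, which interconverts pyruvate and lactate, held 1139, 1197 and 1048 CPM in controls, 1281, 934 and 1092 at 200 µM, 948, 562 and 876 at 400 µM, 988, 1095 and 858 under IL-4, and 1385, 1282 and 731 under IFN-γ. Its changes were -0.03 ± 0.23, -0.50 ± 0.23, -0.20 ± 0.23 and 0.01 ± 0.23 in that order (adjusted p = 0.935, 0.132, 0.566 and 0.987). Upper-quartile scaling and DESeq2's size factors turn the last of these to the other side of 0.

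**Figure D3:**
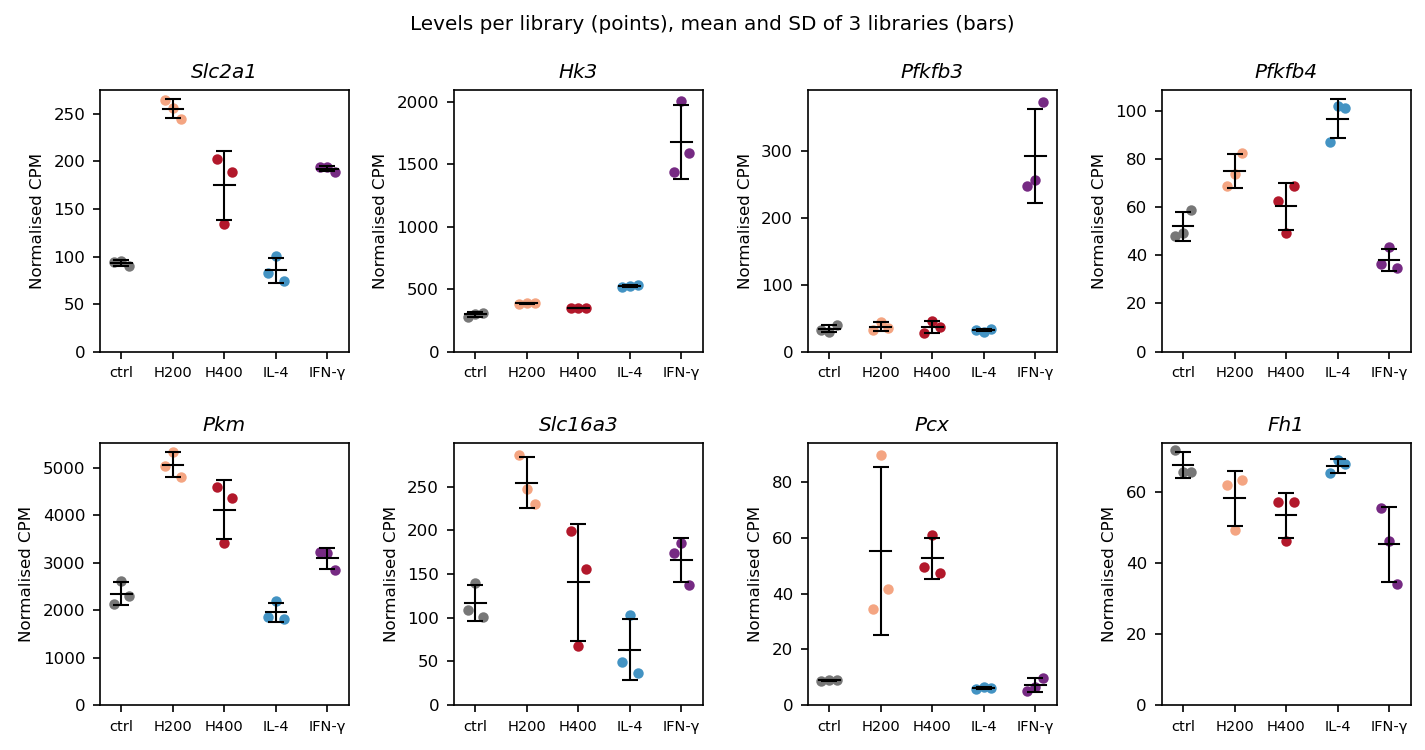
Level of 8 members in every library (points, TMM-normalised CPM on a linear axis from 0), with the mean and SD of 3 libraries as bars, for control (ctrl), heme-albumin at 200 and 400 µM (H200, H400), IL-4 and IFN-γ. Slc2a1, Pkm and Pcx stand above the controls in all 6 heme-albumin libraries, Hk3 and Pfkfb3 are highest with IFN-γ, Pfkfb4 is highest with IL-4, and Slc16a3 has 1 heme-albumin 400 library, replicate 2, below the controls.

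Among the genes of pyruvate entry, Pcx rose with heme-albumin and Pdk1 fell with IL-4. Pcx is pyruvate carboxylase, which refills the TCA cycle with oxaloacetate (ENSMUSG00000024892, chromosome 19, 4510472 to 4621752). It stood at 8.70, 8.96 and 9.03 CPM in controls, 34.5, 89.7 and 41.7 at 200 µM, 49.5, 60.9 and 47.5 at 400 µM, 5.70, 6.36 and 6.11 under IL-4, and 4.98, 6.45 and 9.85 under IFN-γ. All 6 heme-albumin libraries lay above the other 9. Pcx rose by 2.64 ± 0.32 at 200 µM (adjusted p = 6.86e-05) and 2.56 ± 0.32 at 400 µM (adjusted p = 7.77e-05), or 6.21- and 5.91-fold, the largest rise of the 37 genes at either dose. These calls passed in all alternatives run. The IL-4 libraries were below all controls (-0.55 ± 0.32, adjusted p = 0.235). With only the 6 libraries compared, Pcx passed as lower with IL-4 (-0.56 ± 0.12, adjusted p = 0.00496). Per kilobase Pcx was the lowest of the 37 in controls, at 2.19, and reached 13.6 at 200 µM.

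Pdk1 is a kinase that switches pyruvate dehydrogenase off. It held 134, 142 and 128 CPM in controls, 123, 98.3 and 127 at 200 µM, 95.4, 65.5 and 100.2 at 400 µM, 50.5, 69.7 and 45.1 under IL-4, and 159, 154 and 89.2 under IFN-γ. With IL-4 it fell by 1.29 (SE 0.23, adjusted p = 0.000862), with no overlap and in all alternatives run. At 400 µM all 3 libraries were below all controls, at -0.63 ± 0.22 (adjusted p = 0.0555), and DESeq2 gave an adjusted p of 0.0284. Of the subunits of pyruvate dehydrogenase, Dlat alone passed. Dlat, the acetyltransferase of the complex, stood at 47.3, 50 and 47.1 CPM in controls, 59.4, 57.4 and 59.1 under IL-4 and 73.0, 66.7 and 66.4 under IFN-γ. It rose by 0.51 ± 0.08 with IFN-γ (adjusted p = 0.000221) and by 0.28 ± 0.08 with IL-4 (adjusted p = 0.0177). The IL-4 call was lost without control 1 (adjusted p = 0.0837), control 3 (0.0829), IL-4 replicate 1 (0.056) or IL-4 replicate 3 (0.0815). Pdha1, Pdhb and Dld passed in none of the 4 comparisons with control, their changes ranging from -0.07 for Pdha1 at 200 µM to 0.30 for Dld at 400 µM. Dld at 400 µM passed only without heme-albumin 400 replicate 1 (adjusted p = 0.0169).

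Over the 12 TCA cycle genes and 4 treatments, changes against control ran from -0.68 (Suclg2 with IFN-γ) to 0.49 (Mdh2 at 200 µM). Cs, citrate synthase, stood at 289.7, 286 and 277 CPM in controls, 326, 354 and 305 at 200 µM and 349, 394 and 336 at 400 µM. It rose at 400 µM by 0.34 ± 0.10 (adjusted p = 0.0233), lost without any 1 control (adjusted p = 0.063 to 0.0933), without heme-albumin 400 replicate 2 (0.083) and with no filter (0.0513). Ogdh, the first subunit of 2-oxoglutarate dehydrogenase, stood at 199, 186 and 208 CPM in controls, 260.2, 256 and 243 at 200 µM and 262, 229.9 and 251 at 400 µM. It rose by 0.35 ± 0.09 (adjusted p = 0.0106) and 0.32 ± 0.09 (adjusted p = 0.0158). Both Ogdh calls were lost without control 2 (adjusted p = 0.0726 and 0.0866), and that at 400 µM also without control 1 (0.0513) or heme-albumin 400 replicate 1 (0.0514). With IL-4 Ogdh was at 0.23 ± 0.09 (adjusted p = 0.0717), or 0.0449 with the replicate number as a block.

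Mdh2, mitochondrial malate dehydrogenase, rose at 200 µM and with IL-4. It held 170.5, 158 and 167 CPM in controls, 237, 234 and 224 at 200 µM, 226, 167 and 214 at 400 µM, 250, 196 and 229 under IL-4, and 191, 174 and 152 under IFN-γ. The rise was 0.49 ± 0.12 at 200 µM (adjusted p = 0.0123) and 0.45 ± 0.12 with IL-4 (adjusted p = 0.017). The first was lost without control 2 (adjusted p = 0.0595), and the second without control 2 (0.0773), control 3 (0.0522), IL-4 replicate 1 (0.0809) or IL-4 replicate 3 (0.0632). At 400 µM it was 0.29 ± 0.12 (adjusted p = 0.103), and 0.0231 without replicate 2.

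Suclg1, the shared alpha subunit of succinyl-CoA ligase, was the TCA cycle gene that rose in 3 comparisons. It held 62.4, 58.5 and 59.7 CPM in controls, 71.1, 71.7 and 70.0 at 400 µM, 73.5, 69.8 and 73.4 under IL-4, and 67.4, 69.4 and 68.7 under IFN-γ. The rises were 0.24 ± 0.07 (adjusted p = 0.0203), 0.26 ± 0.07 (adjusted p = 0.0101) and 0.19 ± 0.07 (adjusted p = 0.0376). At 400 µM the call was lost without control 2 (adjusted p = 0.099) or 3 (0.077), with no filter (0.0816) and with only the 6 libraries compared (0.0859). With IL-4 it was lost without control 2 (0.0708), control 3 (0.0527) or IL-4 replicate 3 (0.0646). With IFN-γ it was lost in 10 of 14 alternatives, among them without any 1 control (0.0572 to 0.149), without IFN-γ replicate 2 (0.0814) or 3 (0.0727), without the 2 libraries that stood apart (0.0574), or with upper-quartile scaling (0.424). Dlst, the succinyltransferase of 2-oxoglutarate dehydrogenase, rose with IL-4 by 0.24 ± 0.08 (adjusted p = 0.0443), from 131, 125 and 142 to 157, 148 and 164 CPM. The Dlst call was lost without any 1 of the 6 libraries compared (adjusted p = 0.0509 to 0.228) and with 2 other scalings (0.0748 and 0.0788) or no filter (0.0815).

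With IFN-γ the beta subunits of succinyl-CoA ligase, fumarase and 2 of the 3 subunits of NAD-linked isocitrate dehydrogenase fell. Suclg2, the GTP-forming beta subunit, stood at 28.1, 26.2 and 30.3 CPM in controls and 22.6, 16.5 and 13.4 under IFN-γ, a fall of 0.68 (SE 0.18, adjusted p = 0.0088). With IL-4 Suclg2 stood at 19.7, 23.8 and 20.3 CPM, below every control (-0.41 ± 0.18, adjusted p = 0.117, and 0.00915 with only the 6 libraries compared). Fh1, fumarase, stood at 72.0, 65.7 and 65.7 CPM in controls and 55.5, 46.2 and 34.3 under IFN-γ, a fall of 0.58 (SE 0.15, adjusted p = 0.00823). With IFN-γ both passed in all alternatives run, and their libraries lay below every control, with the lowest value in replicate 3. Sucla2, the ATP-forming beta subunit, stood at 65.4, 61.1 and 58.3 CPM in controls and 50.7, 46.5 and 52.6 under IFN-γ, and fell by 0.30 (SE 0.09, adjusted p = 0.0172). That call was lost without control 1 (adjusted p = 0.0697) or IFN-γ replicate 2 (0.0642). Suclg2 shares 19.1% of its 50-base words with other genes.

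Idh3a, the catalytic subunit of isocitrate dehydrogenase, stood at 70.4, 65.8 and 72.1 CPM in controls and 66.9, 50.1 and 35.8 under IFN-γ, and fell by 0.45 (SE 0.17, adjusted p = 0.0452) with 1 library inside the control range. Idh3g stood at 86.7, 87.9 and 88.1 CPM in controls and 77.5, 78.6 and 71.8 under IFN-γ, and fell by 0.20 (SE 0.07, adjusted p = 0.0369). Idh3b stood at 116, 131 and 121 CPM in controls and 136, 149.7 and 161 under IFN-γ, and rose by 0.28 ± 0.08 (adjusted p = 0.0148). The 3 subunits of this enzyme therefore did not move together, and Idh3b made up 44.4 ± 1.81% of their level per kilobase in controls and 54.1 ± 4.86% with IFN-γ. All 3 calls rest on single libraries. The Idh3a call was lost without any 1 control (adjusted p = 0.0645 to 0.104), without IFN-γ replicate 2 (0.0977) or 3 (0.141), with only the 6 libraries compared (0.146) and without the 2 libraries that stood apart (0.118). The Idh3g call was lost without any 1 control (0.0693 to 0.0739), without IFN-γ replicate 3 (0.119), without both libraries that stood apart (0.0813), with no filter (0.0866) and with only the 6 libraries compared (0.0811). The Idh3b call was lost without control 1 (0.0662) or IFN-γ replicate 3 (0.0592), with upper-quartile scaling (0.106) and with only the 6 libraries compared (0.112). Without both libraries that stood apart, 13 of the 37 genes rose with IFN-γ and 4 fell, against 11 and 7 with them. Mdh1, cytosolic malate dehydrogenase, held 209, 223 and 217 CPM in controls and 192, 201 and 147 under IFN-γ, and missed the threshold (-0.26 ± 0.10, adjusted p = 0.0542). It passed by DESeq2 (0.0228), with 2 other scalings (0.0396 and 0.0165) and without IFN-γ replicate 1 (0.0421) or 2 (0.023).

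**Figure D4:**
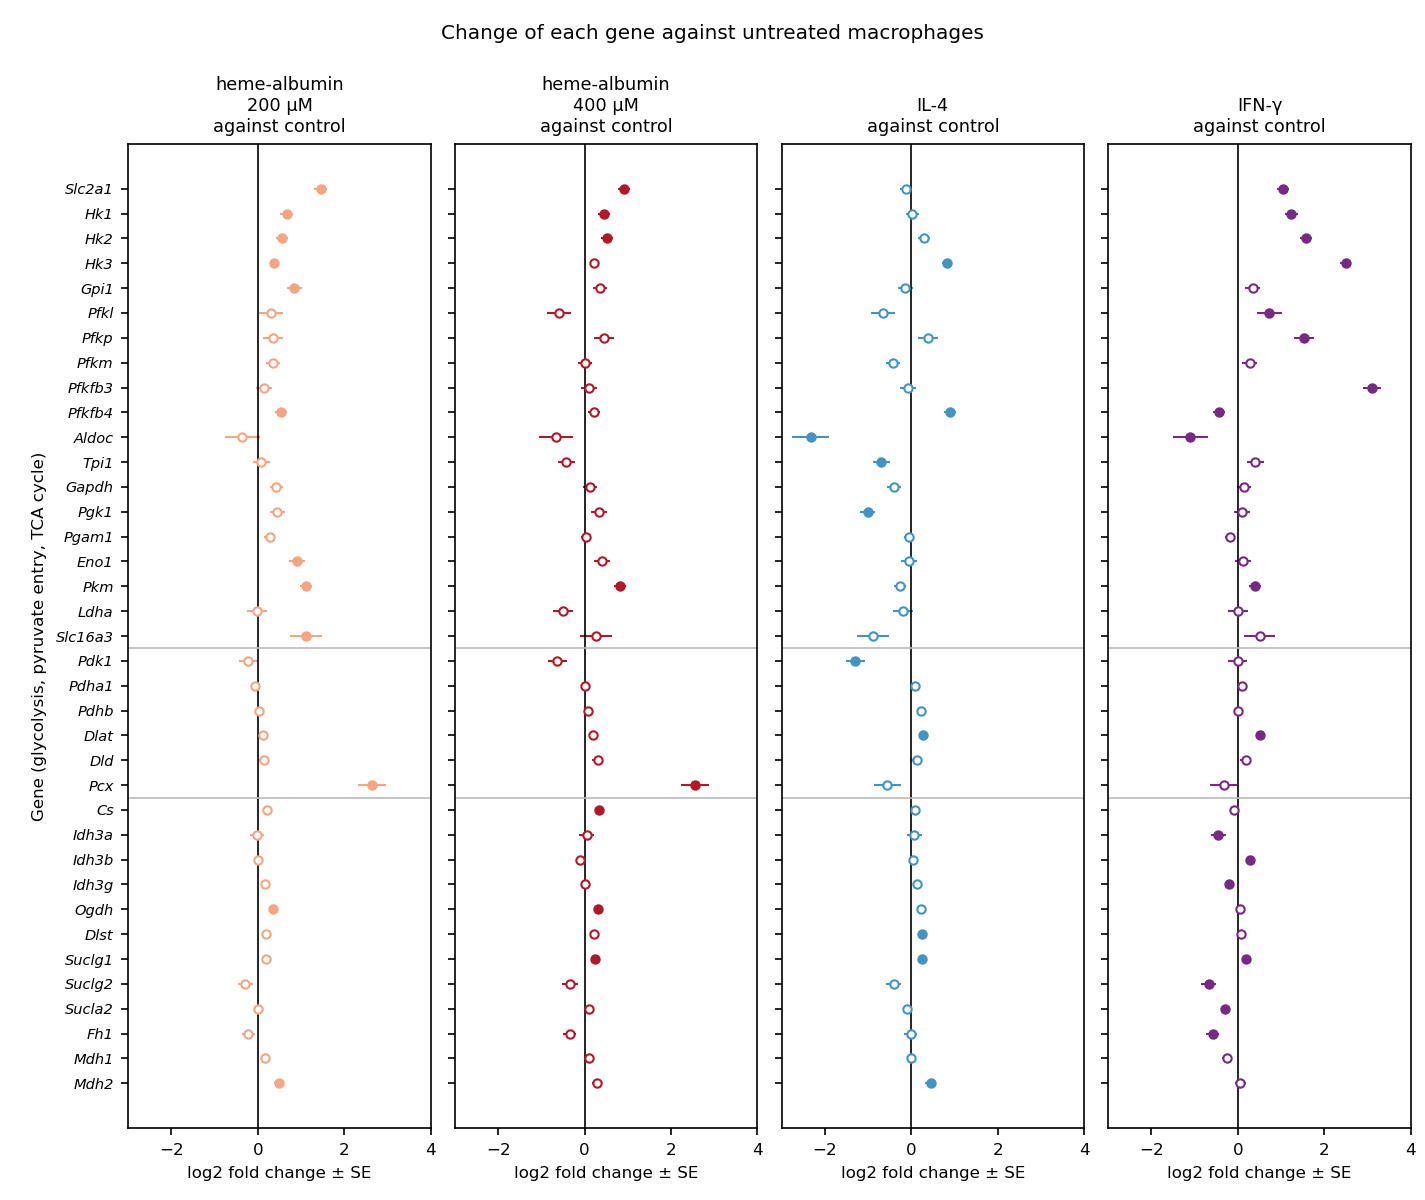
Log2 fold change against control (points) with its SE (lines) for each of the 37 genes under each treatment, filled where edgeR's adjusted p was under 0.05 and open otherwise, with grey lines between glycolysis, pyruvate entry and the TCA cycle. The largest changes are Pfkfb3 (3.10) and Hk3 (2.49) with IFN-γ, Pcx (2.64 and 2.56) with heme-albumin, and Aldoc (-2.33) with IL-4, while most TCA cycle points lie close to 0.

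The 2 doses of heme-albumin did not separate by this test. None of the 37 genes differed between 400 and 200 µM by edgeR's adjusted p, and neither did any of the 11883 genes tested (0.00%), although 8 members and 1796 genes did so at an unadjusted p under 0.05. DESeq2 called 11 genes and none of the 37. All 8 were lower at 400 µM, 7 of them in glycolysis, and the glycolysis median was -0.31, against 0.00 over all genes. Slc2a1 differed by -0.54 ± 0.14 (adjusted p = 0.292), Pfkl by -0.91 ± 0.28 (adjusted p = 0.292) and Gpi1 by -0.48 ± 0.17 (adjusted p = 0.297), each without overlap between the doses. Leaving out 1 library of these groups at a time, 2 to 11 members had an unadjusted p under 0.05. There were 2 without heme-albumin 400 replicate 2, 3 without heme-albumin 200 replicate 1 and 11 without heme-albumin 400 replicate 1. Pcx differed by -0.07 ± 0.29, so that a span of 2 SE runs from -0.66 to 0.51 and holds differences of up to that size in either direction. Without heme-albumin 400 replicate 2 and IFN-γ replicate 3, 13 of the 37 genes rose at 400 µM against control. Gpi1 (adjusted p = 0.00283), Eno1 (0.00699), Mdh2 (0.007), Pfkp (0.0234) and Pfkfb4 (0.0489) were added.

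IL-4 and IFN-γ were compared directly, since they stand in the labels for opposed states. Of the 37 genes, 7 were higher and 18 lower with IL-4, against 24.3% and 26.3% of all genes tested (50.6% either way), and under upper-quartile scaling 10 and 15. Of the 19 glycolysis genes, 15 were lower and 1 was higher (Pfkfb4), with a median difference of -1.10. Of the 12 TCA cycle genes, 5 were higher and 1 lower, with a median of 0.24. The glycolysis calls that held in all alternatives were those of Slc2a1 (-1.17 ± 0.14), Hk1 (-1.21 ± 0.15), Hk2 (-1.28 ± 0.14), Hk3 (-1.67 ± 0.12), Pfkl (-1.39 ± 0.28), Pfkp (-1.14 ± 0.23), Pfkm (-0.70 ± 0.17), Pfkfb3, Pfkfb4, Tpi1 (-1.09 ± 0.20), Pgk1 (-1.10 ± 0.18), Pkm (-0.66 ± 0.14) and Slc16a3 (-1.39 ± 0.37). In the mitochondrial genes they were those of Pdk1 (-1.29 ± 0.23), Idh3g (0.33 ± 0.07) and Fh1 (0.57 ± 0.15). The highest adjusted p among these 16 was 0.00727, for Slc16a3. The other 9 calls were each lost in at least 1 alternative.

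Against IL-4, heme-albumin at 200 µM gave 14 higher and 1 lower, where 16.8% and 14.5% of all genes were called (31.4% either way). At 400 µM it gave 10 higher and 2 lower, against 20.5% and 19.7% (40.2% either way). At both doses 0 of the 12 TCA cycle genes passed. At an unadjusted p under 0.05 there were 0 at 200 µM and 2 at 400 µM, and DESeq2 called 0 and 1. Calls that held in all alternatives at both doses were those of Slc2a1 (1.58 ± 0.14 and 1.03 ± 0.14), Aldoc (1.96 ± 0.41 and 1.67 ± 0.41), Pgk1 (1.46 ± 0.18 and 1.35 ± 0.18), Pkm (1.38 ± 0.14 and 1.08 ± 0.14) and Pcx (3.19 ± 0.32 and 3.12 ± 0.32), all higher with heme-albumin, and Hk3 (-0.44 ± 0.11 and -0.59 ± 0.11), lower. Pfkfb4 was lower than with IL-4 at 400 µM (-0.68 ± 0.14, adjusted p = 0.00138). At 200 µM it missed the threshold (adjusted p = 0.0529), and passed with the replicate number as a block (0.0437).

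Against IFN-γ, heme-albumin at 200 µM gave 13 higher and 7 lower, where 20.4% and 21.7% of all genes were called (42.1% either way). At 400 µM it gave 9 higher and 10 lower, against 20.6% and 22.3% (42.9% either way), or 12 and 8 under upper-quartile scaling, which shifts the median of all genes by 0.12. Calls that held in all alternatives at both doses were those of Hk2 (-1.0 ± 0.14 and -1.06 ± 0.14), Hk3 (-2.12 ± 0.12 and -2.26 ± 0.12), Pfkp (-1.18 ± 0.23 and -1.07 ± 0.23) and Pfkfb3 (-2.96 ± 0.20 and -3.0 ± 0.20), lower with heme-albumin, and Pfkfb4 (0.98 ± 0.14 and 0.66 ± 0.14) and Pcx (2.97 ± 0.32 and 2.90 ± 0.32), higher. Of the 12 TCA cycle genes, 6 were higher and 1, Idh3b, lower at each dose (-0.27 ± 0.08 and -0.38 ± 0.08, lost in 6 and 1 of 14 alternatives). Slc2a1 differed from IFN-γ by 0.41 ± 0.14 at 200 µM (adjusted p = 0.0278), which was lost without heme-albumin 200 replicate 1 or 2 or any 1 IFN-γ library (adjusted p up to 0.0813), and differed by -0.13 ± 0.14 at 400 µM (adjusted p = 0.463). Pdk1 was lower at 400 µM than with IFN-γ (-0.63 ± 0.22, adjusted p = 0.0378), which was lost in 7 of 14 alternatives (adjusted p up to 0.139). These were the replicate number as a block, upper-quartile scaling, only the 6 libraries compared, and leaving out heme-albumin 400 replicate 1 or 2 or IFN-γ replicate 1 or 2.

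Across all 10 pairs of groups, Hk1, Hk3 and Pkm differed in 8, and Slc2a1 and Pfkfb4 in 7. At the other end, Ldha, Pdha1 and Dld differed in none, although without both libraries that stood apart Ldha differed between IL-4 and IFN-γ (adjusted p = 0.0138, against 0.48 with them). The 10 comparisons share groups, so these counts are a description.

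Further genes of the same steps were read from 2 lists, and those named are among the 4 with the smallest adjusted p in a comparison with control. The counts of the lists here stand against 14.0% higher and 9.48% lower over all genes tested for the lower dose, 14.7% and 10.8% for the higher, 14.9% and 12.0% for IL-4, 24.1% and 19.5% for IFN-γ. Of 19 further tested genes of glucose handling, 3 rose and 1 fell at 200 µM, 4 and 3 at 400 µM, 3 and 2 under IL-4, and 7 and 2 under IFN-γ. G6pc3, a phosphatase that works against the hexokinases, rose at 200 µM (20.8 ± 3.05 to 42.8 ± 5.83 CPM, 1.05 ± 0.13, adjusted p = 8.59e-05), at 400 µM (0.79 ± 0.13, adjusted p = 0.000705) and with IL-4 (0.53 ± 0.13, adjusted p = 0.00797, lost at 0.0512 without control 1). Slc16a7, a carrier of pyruvate and lactate, fell at both doses and with IFN-γ, from 44.0 ± 3.85 CPM to 29.1 ± 3.88, 30.5 ± 2.84 and 31.5 ± 3.42. Ldhb, a lactate dehydrogenase subunit beside Ldha, rose in the same comparisons, from 4.25 ± 0.791 CPM to 8.02 ± 1.56, 9.67 ± 1.93 and 12.0 ± 6.42. Its adjusted p was 0.0499, 0.0145 and 0.00196 in that order. The call at 200 µM was lost in 8 of 13 alternatives and that at 400 µM in 2 of 14. Slc2a3, the glucose transporter GLUT3, fell with IL-4 (12.6 ± 0.579 to 6.18 ± 1.19 CPM, adjusted p = 0.00291). Gpd2, the mitochondrial glycerol phosphate dehydrogenase that takes electrons from glycolysis, rose with IFN-γ (38.7 ± 6.67 to 104 ± 54.7 CPM, 1.42 ± 0.29, adjusted p = 0.00161).

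Of 24 further tested genes around pyruvate and the TCA cycle, 2 rose and 6 fell at 200 µM, 3 and 7 at 400 µM, 4 and 1 under IL-4, and 8 and 8 under IFN-γ. Slc25a12, a mitochondrial aspartate-glutamate carrier of the malate-aspartate shuttle, rose at 200 µM (1.23 ± 0.11, adjusted p = 6.13e-06), at 400 µM (1.25 ± 0.11, adjusted p = 5.44e-06) and with IFN-γ (1.06 ± 0.11, adjusted p = 7.41e-06), from 61.9 ± 3.10 CPM to 145 ± 5.59, 148 ± 13.8 and 129 ± 19.3. Its paralog Slc25a13 rose with IL-4 (1.16 ± 0.14, adjusted p = 4.64e-05) and fell with IFN-γ by 1.05 (SE 0.14, adjusted p = 6.97e-05). The pyruvate dehydrogenase phosphatases, which switch that enzyme on, were also among the genes called. Pdp2 fell from 26.8 ± 1.76 CPM to 12.1 ± 1.44 at 200 µM, 13.2 ± 1.37 at 400 µM and 12.5 ± 2.65 with IFN-γ, and Pdp1 rose with IL-4 from 29.8 ± 2.44 to 66.5 ± 5.03 CPM (adjusted p = 0.000689). Acly, ATP citrate lyase, which turns exported citrate back into acetyl-CoA for lipid synthesis, fell at 200 µM (-0.88 ± 0.15, adjusted p = 0.000925) and 400 µM (-0.91 ± 0.15, adjusted p = 0.000674). With IFN-γ Slc25a1, the mitochondrial citrate exporter, fell by 1.07 (SE 0.13, adjusted p = 3.55e-05).

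Many glycolysis genes are textbook targets of HIF-1, the hypoxia-inducible factor, so 17 tested genes of HIF-1 and its targets outside glycolysis were read beside them. At 200 µM heme-albumin 2 rose and 0 fell (4 and 0 at an unadjusted p under 0.05, 2 and 0 by DESeq2). At 400 µM 2 rose and 1 fell, 1 rose and 4 fell with IL-4, and IFN-γ gave 7 and 2. Of all genes tested, the shares called higher and lower were 14.0% and 9.48% for the lower dose, 14.7% and 10.8% for the higher, 14.9% and 12.0% for IL-4, 24.1% and 19.5% for IFN-γ. Hif1a itself stood at 133 ± 6.40 CPM in controls, rose with IFN-γ to 304 ± 51.3 (1.20 ± 0.12, adjusted p = 6.98e-06) and fell with IL-4 to 92.4 ± 6.07 (-0.52 ± 0.12, adjusted p = 0.00665). At 400 µM it rose to 182 ± 18.6 (0.46 ± 0.12, adjusted p = 0.015), lost without control 2 (0.0672), control 3 (0.0525) or heme-albumin 400 replicate 2 (0.062). Vegfa rose with IFN-γ from 39.4 ± 4.84 to 331 ± 147 CPM (3.07 ± 0.55, adjusted p = 0.000595), while Ndrg1, another target, fell with IFN-γ (-1.27 ± 0.20, adjusted p = 0.000201) and with IL-4 (-1.14 ± 0.20, adjusted p = 0.000707). Bnip3 fell with IL-4 from 40.9 ± 5.95 to 16.5 ± 6.0 CPM (adjusted p = 0.00088). HIF-1 is regulated mostly at the protein level, which was not measured here.

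Summed markers of some other cell types moved with the treatments. Over the 9 neutrophil markers, all with counts in some library, the summed level was 109 to 142 CPM in controls, 718 to 1189.7 at 200 µM, 841 to 1312 at 400 µM, 79.2 to 92.4 with IL-4 and 31.3 to 95.9 with IFN-γ, and Mmp8 made up 47.0 to 98.9% of it. The 5 megakaryocyte markers summed to 141 to 276 CPM in controls, 397 to 459 at 200 µM, 362 to 626 at 400 µM, 85.9 to 113 with IL-4 and 11.9 to 35 with IFN-γ, of which Pf4 made up 94.8 to 99.5%, with Gp9 at 0. The dendritic cell markers summed to 0.525 to 1.54 CPM in controls, 0.157 to 0.713 at 200 µM, 0.221 to 0.439 at 400 µM, 2.77 to 5.53 with IL-4 and 23.9 to 59.8 with IFN-γ. The T and NK cell markers summed to 52.7 to 76.6 CPM in controls, 57.2 to 145 at 200 µM, 111 to 409 at 400 µM, 170.1 to 190.3 with IL-4 and 67.9 to 185 with IFN-γ. Of these markers, Cd3e, Cd3d and Gzma were at 0 and Il7r made up at least 98.8% of the sum. The stromal and endothelial markers summed to 17.3 to 28.1 CPM in controls, 25.3 to 35.7 at 200 µM and 27.7 to 29.3 at 400 µM. Their sum was 16.6 to 29.9 CPM with IL-4 and 13.2 to 27.7 with IFN-γ. In no library did the B cell markers sum to over 3.16 CPM, the erythroid markers to over 0.988 or the mast cell and basophil markers to over 0.69. Pax5 of the B cell list and Hba-a1 and Alas2 of the erythroid list were at 0. The part of these in the results above was not tested, and in bulk RNA fewer cells of a type and less RNA per cell cannot be told apart.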

How the data were processed

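RNA of 15 libraries was sequenced after a stranded TruSeq kit, per the labels' protocols. The deposited table holds raw gene counts, whole numbers for 25700 Ensembl IDs. The submitters' processing notes name STAR 2.7.0e, SAMtools 1.9, featureCounts and the build GRCm38.p5, and the strand setting of the counting is not given in the sources used here. GENCODE M21 gave symbols and positions for 25587 IDs. Members and lists were chosen with earlier results of these data known.

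Counts were filtered with filterByExpr, leaving 11883 genes, scaled by TMM (factors 0.886 to 1.122) and tested in edgeR 4.0.16 (R 4.3.3) by the quasi-likelihood test with 1 mean per group over all 15 libraries. P-values were adjusted by Benjamini-Hochberg within each comparison, at 0.05. The script was tested on simulated data. Groups follow the titles, and the treatment field of the high dose differs slightly among its libraries, while their titles give 400. All 37 members were named, and from each further list genes among the 4 smallest adjusted p-values per comparison with control. Alternatives were DESeq2 1.42.0, its size factors, upper-quartile scaling, a fit to only the 6 libraries compared, dropping the low-count filter or requiring 5 CPM in at least 3 libraries, a replicate block and leaving out each library. Leaving out both libraries that stood apart, merged exon lengths and the STAT motifs were added after seeing the data.

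Each replicate number carries its own date in the column names, the same in every group, and what the date marks is not stated. Deviations from group means correlated with a median of 0.144 over the 30 pairs with the same number (-0.168 to 0.474, 19 over 0.1) and -0.0688 over the 60 other pairs, and in 14 of 15 libraries the best correlation was with their own number. Other genes share over 1% of 50-base words with 12 members. Beside those given with the results, these are Pgam1 (41.5%), Pdhb (30.3%), Ldha (10.4%), Pfkm (8.83%) and Cs (4.00%). Exons of Pkm and Pfkm overlap a gene on the same strand (Gm49759 by 767 bases and Gm26513 by 341), where reads may be lost or mixed. Exons of 11 members overlap an antisense gene (Slc2a1, Hk1, Hk3, Gpi1, Pfkp, Pfkm, Tpi1, Gapdh, Pdha1, Idh3b and Mdh1), so that reads of both may be mixed if the counting ignored strand.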

Additional observations from a re-analysis of the deposited data

How the results depend on the processing

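In the 4 comparisons with control, over members called in at least 1 setting, 853 results under the alternatives kept their side of the threshold, 43 gained a call, 118 lost it and 0 reversed. Between treatments, every alternative kept 16 of 25 calls for IL-4 against IFN-γ, 13 of 15 for 200 µM against IL-4, 12 of 20 for 200 µM against IFN-γ, 7 of 12 for 400 µM against IL-4 and 8 of 19 for 400 µM against IFN-γ. Counts of members are given here where they moved by over 1.5 times. At 400 µM against control, 8 rose, but 5 with no filter and 13 without both libraries that stood apart, and 0 fell, but 1 by DESeq2, 1 with its size factors and 2 with only the 6 libraries compared. With IL-4, 4 fell, but 10 with only the 6 libraries compared. With IFN-γ, 11 rose, but 7 with upper-quartile scaling, and 7 fell, but 4 with only the 6 libraries compared and 4 without both libraries that stood apart. Between 400 µM and IFN-γ, 19 changed, but 8 with only the 6 libraries compared.

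Leaving out 1 library at a time, 6 to 10 members rose at 200 µM (6 without control 2) and 4 to 8 at 400 µM (5, 4 and 5 without controls 1, 2 and 3). With IL-4, 2 to 5 rose (3 without control 2 or IL-4 replicate 1, 2 without control 3 or IL-4 replicate 3) and 3 to 5 fell. With IFN-γ, 7 to 10 rose (7 without control 1) and 3 to 8 fell (3, 4 and 3 without controls 1, 2 and 3, and 3 without IFN-γ replicate 3). Between 400 µM and IL-4, 7 to 12 changed (7 without heme-albumin 400 replicate 1, IL-4 replicate 1 or IL-4 replicate 3). The cause was not tested.

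With the replicate block, beside the calls given with the results, Mdh1 lost its difference between IL-4 and IFN-γ (adjusted p = 0.0501), and calls were gained by Pgam1 for 200 µM against IL-4 (0.0448), Idh3a for 200 µM against IFN-γ (0.0329), and Pfkm (0.0378) and Cs (0.0388) for 400 µM against IL-4. The block changed no other call of a member and moved no count of members by over 1.5 times: at 200 µM 13 rose, at 400 µM 8, with IL-4 7 and with IFN-γ 10. The lowest count of any member in any library was 84, for Pcx. Intervals of changes rest on means of 3 libraries a group and on an estimate of the spread shared by all 5 groups.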

Other observations

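Genes of glycogen metabolism, which stores and releases glucose phosphate, were read from a list of 12, all tested. At 200 µM heme-albumin 5 rose and 1 fell, and at 400 µM 4 and 2. With IL-4 0 rose and 4 fell (0 and 4 at an unadjusted p under 0.05 by edgeR, 0 and 4 by DESeq2), and with IFN-γ 2 and 2. Of all genes tested, the shares called higher and lower were 14.0% and 9.48% for the lower dose, 14.7% and 10.8% for the higher, 14.9% and 12.0% for IL-4, 24.1% and 19.5% for IFN-γ. Gbe1, the branching enzyme, stood at 43.5 ± 4.10 CPM in controls and 154 ± 33.6 at 200 µM (1.83 ± 0.29, adjusted p = 0.000578). At 400 µM Gbe1 reached 216 ± 85.8 CPM (2.31 ± 0.30, adjusted p = 9.02e-05). Ugp2, which makes the UDP-glucose that glycogen is built from, rose from 129 ± 8.33 CPM to 252 ± 39.9 at 200 µM and 311 ± 99 at 400 µM. Gyg, the primer glycogenin, fell at 200 µM from 149 ± 11.4 to 92.0 ± 2.79 CPM (adjusted p = 0.000922) and with IL-4 to 102 ± 5.89 CPM (adjusted p = 0.00369).

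With IL-4 the phosphorylases, which release glucose phosphate, fell, Pygl from 97.4 ± 4.56 to 49.9 ± 5.73 CPM (adjusted p = 0.000671) and Pygb from 91.7 ± 2.29 to 63.9 ± 1.08 CPM (adjusted p = 0.00176). Pygb fell with IFN-γ as well, to 62.9 ± 5.64 CPM (adjusted p = 0.000833). With IFN-γ Gys1, glycogen synthase, rose from 24.2 ± 1.21 to 50.3 ± 6.28 CPM (adjusted p = 0.000682) and Pgm1, phosphoglucomutase, from 47.4 ± 2.30 to 87.8 ± 20.4 CPM (adjusted p = 0.000246). These named calls held in all alternatives run.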
